A study of Homo sapiens with 12 samples.

Results

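Heat shock proteins and their cochaperones were examined in RNA sequencing of SMARCA4 knockout (KO) and control cells of 2 breast cancer cell lines. The members were the genes whose symbol begins with HSPA, HSPB, HSPD, HSPE, HSPH, HSP90, DNAJ, BAG with a digit or CCT with a digit, and 66 of the 11529 genes of the table matched. By role they comprised 6 cytosolic HSP70 and HSP110 proteins, 2 cytosolic HSP90 proteins, 2 small heat shock proteins, 17 cytosolic or nuclear J-domain proteins, 7 subunits of the CCT chaperonin, 7 nucleotide exchange factors of the BAG and HSPBP1 type and 8 mitochondrial members. The 12 members of the endoplasmic reticulum (ER) were kept apart from the other 54 throughout. The last 5 were matched by name only and are no chaperones of these classes (CCT6P3, a pseudogene, DNAJC27-AS1, an antisense RNA, HSPB11, HSPBAP1 and the readthrough transcript HSPE1-MOB4). HSPA1A and HSPA1B, the classical heat-inducible HSP70 genes, were not analysed here.

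The study used MDA-MB-468 and MDA-MB-231, both established human lines of triple-negative breast cancer (TNBC), to follow what the loss of SMARCA4, an ATPase of the SWI/SNF chromatin remodelling complex, does to gene expression. Each line had 3 control samples and 3 SMARCA4 KO samples, 12 in all. The KO cells were polyclonal pools that had been transduced with a lentivirus carrying Cas9 and 1 guide RNA and selected with puromycin, so that a KO sample can hold unedited cells. The controls have the genotype wild type and the description Control. In the immunoblots of the study, control names cells given a nontargeting CRISPR/Cas9 vector and WT the parental cells, and which of these the sequenced controls were is not stated for the RNA samples. The authors deposited log2(FPKM + 1) values, where FPKM is the number of fragments scaled by transcript length and library size. FPKM is given below for levels, and every difference is on the log2(FPKM + 1) scale, which understates changes of genes at low levels. The read depth is unknown.

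Chaperones bind proteins that are not in their folded form and help them fold, refold, cross membranes or reach degradation. HSP70 proteins work in cycles of ATP binding and hydrolysis, in which J-domain proteins (DNAJ) deliver substrates and stimulate hydrolysis, and BAG proteins, HSPBP1 and HSP110 release the nucleotide. HSP90 acts on kinases and steroid receptors, the CCT ring folds actin and tubulin, and small heat shock proteins hold unfolded proteins without ATP. Heat shock factor 1 (HSF1) induces many genes of the cytosolic set under stress. The ER set, led by HSPA5 (BiP), answers instead to the transcription factors ATF6 and XBP1 of the unfolded protein response. Tumour cells commonly express cytosolic chaperones at high levels.

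SMARCA4 itself was 96.9, 97.4 and 101 FPKM in the controls and 39.7, 43.5 and 47.7 FPKM in the KO samples of MDA-MB-468, and 67.5, 71.5 and 67.0 FPKM in the controls and 21.0, 23.9 and 22.6 FPKM in the KO samples of MDA-MB-231, so that it was lower in every KO sample (-1.16 ± 0.08, adjusted p = 0.0137 and -1.57 ± 0.06, adjusted p = 0.00143). Of the epithelial markers, 6 of 6 were in the table, but their levels differed between the lines. EPCAM had a mean of 302 FPKM in MDA-MB-468 controls and 14.0 FPKM in MDA-MB-231 controls, and CDH1 44.45 and 0.27 FPKM. The mesenchymal marker VIM separated the control cells of the lines the other way (mean 2.61 FPKM in MDA-MB-468 and 1309 FPKM in MDA-MB-231). Of 5 fibroblast markers 0 were in the table, and of 5 leukocyte markers 1 was (CD14, mean 49.6 FPKM in MDA-MB-468 controls and 1.16 FPKM in MDA-MB-231 controls). The 11 immediate early genes, which respond to handling at harvest, set single samples apart. In MDA-MB-231, replicate 1 was the highest sample for 11 of the 11 among the controls and for 10 among the KO samples, and in MDA-MB-468 replicate 2 was the lowest for 9 in each group. None of the samples was removed. Nothing says that the 3 samples of a group came from separate cultures, so p-values measure the spread between these samples, which may be technical.

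The promoter sequences are shown first because some of them hold an element of a known regulator. Most members with a promoter held neither the heat shock run nor the ER stress element described here, so the search does not divide the members. HSF1 binds heat shock elements, arrays of the units GAA and TTC in turn with 2 bases between them, and ATF6 acts through the ER stress element, a CCAAT box and the letters CCACG 9 bases further on. RefSeq promoters (GRCh38.p14, 250 bases before to 50 bases after the annotated start) were searched on both strands, and 80 promoters of 59 members were in the set of 35116. A run of 3 units occurred in 0.49% of all promoters and in 7.5% of the member promoters. These belonged to 6 of the 59 members (DNAJA1, DNAJB6, HSP90AA1, HSP90AB1, HSPA8 and HSPD1). The 2-unit forms GAANNTTC and TTCNNGAA, which overlap the longer run, occurred in 13.5% of all promoters and in 21.2% of the member promoters. The ER stress element occurred in 0.0769% of all promoters and in 2.5% of the member promoters, those of HSPA5 and HSP90B1 alone. CCAAT by itself occurred in 32.5% of member promoters and 34.6% of all promoters. The stretches that hold these letters are printed for 7 genes, 5′ to 3′ on the strand of the gene, with GRCh38.p14 coordinates and the matches in capitals.

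HSP90B1 (chr12:103930201-103930354, plus strand): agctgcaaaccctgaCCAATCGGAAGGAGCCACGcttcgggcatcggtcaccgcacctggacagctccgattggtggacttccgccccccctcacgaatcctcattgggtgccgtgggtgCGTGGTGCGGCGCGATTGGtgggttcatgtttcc
HSPA5 (chr9:125241376-125241424, minus strand): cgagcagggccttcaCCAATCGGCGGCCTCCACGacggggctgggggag
DNAJB6 (chr7:157336858-157336900, plus strand): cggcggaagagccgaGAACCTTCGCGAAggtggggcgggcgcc
HSP90AA1 (chr14:102087105-102087147, minus strand): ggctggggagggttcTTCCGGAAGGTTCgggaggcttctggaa
HSP90AB1 (chr6:44247763-44247858, plus strand): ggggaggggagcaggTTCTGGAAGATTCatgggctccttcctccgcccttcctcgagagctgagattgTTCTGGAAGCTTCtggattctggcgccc
HSPA8 (chr11:123062164-123062381, minus strand): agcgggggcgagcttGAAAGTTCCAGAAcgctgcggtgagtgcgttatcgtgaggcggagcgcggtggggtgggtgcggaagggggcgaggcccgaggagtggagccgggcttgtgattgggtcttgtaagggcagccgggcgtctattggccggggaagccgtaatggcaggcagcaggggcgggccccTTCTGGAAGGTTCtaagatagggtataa
HSPD1 (chr2:197500053-197500090, minus strand): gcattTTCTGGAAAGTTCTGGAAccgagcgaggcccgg

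A match of letters is a description of the window searched and does not show that a factor binds there. HSP90AB1 and HSPA8 each held 2 separate runs of heat shock units within the window, and HSP90B1 held 2 ER stress elements, whereas the 2 matches of HSPD1 overlap in 1 longer run. The results for these genes are given in their classes below.

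The members are abundant. Their summed level was 1.29% ± 0.09 (SD, n = 3) of the summed FPKM of all genes in MDA-MB-468 controls, 1.40% ± 0.09 in MDA-MB-468 KO, 1.28% ± 0.05 in MDA-MB-231 controls and 1.17% ± 0.04 in MDA-MB-231 KO. HSPA8, the constitutive cytosolic HSP70, was the most abundant member in each of the 4 groups, with 1019, 1210.4 and 1361 FPKM in the controls and 1081, 1221 and 1533 FPKM in the KO samples of MDA-MB-468 and 1704, 1577 and 1373 FPKM in the controls and 1291, 1336 and 1388 FPKM in the KO samples of MDA-MB-231. In MDA-MB-468 controls it was followed by CCT6A (mean 1000.2 FPKM), HSP90AB1 (833), HSPB1 (724) and CCT5 (602). These 5 genes made up 48.8% of the summed level of the 66. HSPA8 and HSP90 genes have many processed pseudogenes, to which the authors' counting may have assigned some of the fragments.

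The first question was whether the KO moved these genes in MDA-MB-468 cells. With limma and the limits of the study (adjusted p under 0.05 over all genes and an absolute log2 difference over 0.5), 0 of the 66 members were called, where 247 genes, 2.14% of the 11529, were. At these limits the paper reports fewer genes in each line than were called here, so its calls were not reproduced exactly. At an unadjusted p under 0.05 there were 16 members, 9 higher in the KO (13.6%, against 14.1% of all genes) and 7 lower (10.6%, against 11% of all genes). Of the 66 differences 41 were positive, 24 negative and 1 zero, with a median of 0.05 (0.02 over all genes). This median rested on single samples, as it was 0.00047, with 34 positive, without control replicate 1 and 0.02 without KO replicate 2, and 0.07 to 0.08 without KO replicate 1, control replicate 2 or control replicate 3. The 3 KO samples lay all above the 3 controls for 10 members (15.2%, against 17.5% of all genes) and all below for 8 (12.1%, against 13.5%), shares close to the background. The compartments lay on opposite sides. Outside the ER 39 of 54 differences were positive (72.2%, against 53.6% of all genes), with a median of 0.08. Without control replicate 1 this median was 0.03, with 33 positive. The KO samples lay all above the controls for 9 of the 54 (16.7%, against 17.5% of all genes), a share close to the background. Within the ER 10 of 12 differences were negative (83.3%, against 45.5% of all genes), with a median of -0.15.

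**Figure D1:**
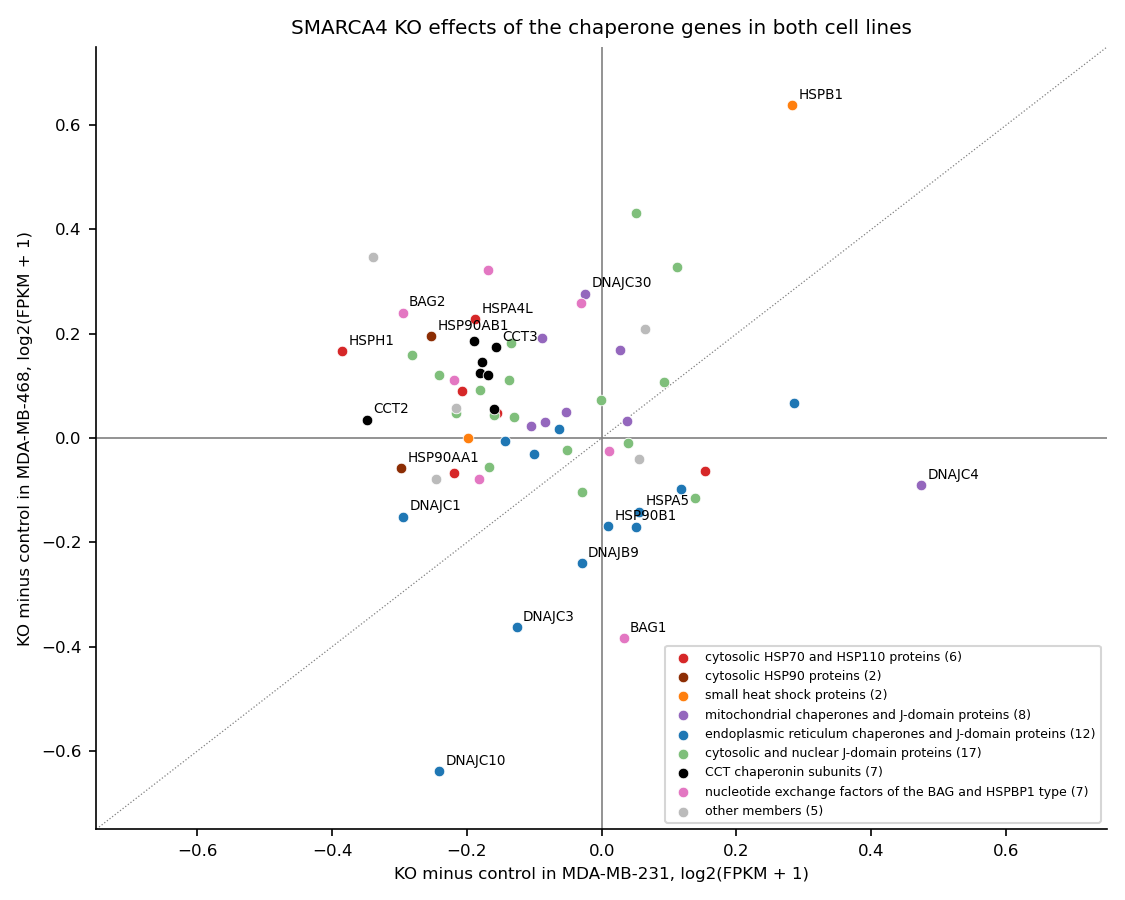
KO minus control on the log2(FPKM + 1) scale in MDA-MB-231 (horizontal axis) and MDA-MB-468 (vertical axis) for the 66 members, coloured by role, with the number of members of each role in brackets and a dotted line of equal effects. The 7 CCT subunits all lie left of the vertical and above the horizontal zero line, and 10 of the 12 ER members lie below the horizontal zero line.

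The ER members carried the single gene that passed the test in MDA-MB-468. DNAJC3 (p58IPK, at chr13:96329393-96447242 in GRCh37, the build of all gene positions below), a J-domain protein of the ER lumen that also inhibits the kinase PERK, was 17.6, 17.5 and 18.7 FPKM in the controls and 13.2, 14.1 and 13.9 FPKM in the KO samples. The KO samples lay below all controls, and the difference of -0.36 ± 0.05, adjusted p = 0.0318 passed the test, as 1.54% of all genes did with a lower level. In MDA-MB-231 it was 13.7, 10.8 and 11.2 FPKM in the controls and 10.9, 10.6 and 10.7 FPKM in the KO samples, and the groups overlapped (-0.13 ± 0.09, adjusted p = 0.387). The call in MDA-MB-468 was lost when the replicate number was fitted as a block (adjusted p = 0.0563) and when any sample but KO replicate 1 was left out (adjusted p from 0.0783 to 0.116), with differences between -0.38 and -0.33.

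DNAJC10 (ERdj5, chr2:183580982-183659191), a disulfide reductase that works with HSPA5 in ER-associated degradation, showed the largest absolute difference of a member in this line, level with HSPB1. It was 48.8, 38.0 and 38.1 FPKM in the controls and 29.1, 25.8 and 23.9 FPKM in the KO samples. Every KO sample lay below every control, and the difference of -0.64 ± 0.12, adjusted p = 0.0559 missed the limit, while the fit with the replicate block passed it (adjusted p = 0.0449). In MDA-MB-231 it was 40.5, 34.7 and 34.8 FPKM in the controls and 31.7, 30.0 and 30.7 FPKM in the KO samples, again with all KO samples below the controls (-0.24 ± 0.07, adjusted p = 0.0879).

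DNAJB9 (ERdj4), a J-domain protein induced through XBP1, was 13.4, 11.7 and 12.5 FPKM in the controls and 10.1, 10.8 and 10.3 FPKM in the KO samples of MDA-MB-468. The groups did not overlap, and the difference was -0.24 ± 0.06, adjusted p = 0.0867. HSP90B1 (GRP94, chr12:104323885-104347709), the HSP90 of the ER, was 303, 321 and 320.4 FPKM in the controls and 276, 281 and 282 FPKM in the KO samples of this line. The KO samples were all lower, with a difference of -0.17 ± 0.04, adjusted p = 0.092. HSPA5 (BiP, chr9:127997132-128003661), the HSP70 of the ER, was 122, 119 and 124 FPKM in the controls and 115, 107 and 109 FPKM in the KO samples. Its KO samples were also all lower (-0.14 ± 0.05, adjusted p = 0.149). Neither of the genes with an ER stress element passed the test.

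Together, 7 of the 12 ER members had all KO samples below all controls in MDA-MB-468 (58.3%, against 13.5% of all genes), and 6 had an unadjusted p under 0.05, all 6 lower (11% of all genes). Their summed level was 644, 655 and 666 FPKM in the controls and 581, 582 and 581 FPKM in the KO samples, without overlap. With each sample left out in turn the median of the 12 stayed between -0.17 and -0.12. In MDA-MB-231 the summed level was 965, 976 and 1019 FPKM in the controls and 1053, 1001 and 909 FPKM in the KO samples, and the groups overlapped. There 7 of 12 differences were negative (58.3%, against 51.5% of all genes), with a median of -0.05. With a lower level 1 passed the test (8.33%, against 5.48% of all genes). This was DNAJC1, an ER membrane J-domain protein, at 20.3, 19.2 and 20.9 FPKM in the controls and 15.5, 16.6 and 16.6 FPKM in the KO samples (-0.29 ± 0.05, adjusted p = 0.0294).

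The other genes of the ER folding machinery, from a list of 18, were not members and were read in the same fits. In MDA-MB-468, 13 of the 18 were lower in the KO (72.2%, against 45.5% of all genes). Of the 18, 2 passed the test, both lower, as 1.54% of all genes did. XBP1, a transcription factor for ER chaperone genes, was 301, 252 and 246 FPKM in the controls and 146, 104 and 94.1 FPKM in the KO samples. No sample overlapped, and XBP1 was the only gene of the list called (-1.23 ± 0.18, adjusted p = 0.0334). CANX (calnexin), the lectin chaperone of the ER membrane, was 443, 431 and 411 FPKM in the controls and 311, 318 and 341 FPKM in the KO samples, also without overlap (-0.41 ± 0.06, adjusted p = 0.0318). In MDA-MB-231, XBP1 was 40.8, 40.1 and 43.9 FPKM in the controls and 42.2, 41.6 and 37.2 FPKM in the KO samples, and the groups overlapped. The difference between the effects of the lines was -1.18 ± 0.20, adjusted p = 0.00354 for XBP1 and -0.41 ± 0.10, adjusted p = 0.024 for CANX. PDIA4, a disulfide isomerase, rose in MDA-MB-231, from 141, 142 and 142 FPKM to 179, 173 and 158 FPKM (0.26 ± 0.06, adjusted p = 0.0468). HYOU1, the exchange factor of the ER HSP70, was 86.8 ± 2.48 FPKM (SD, n = 3) in controls and 80.3 ± 0.29 FPKM in KO cells of MDA-MB-468 (-0.11 ± 0.04, adjusted p = 0.185).

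**Figure D2:**
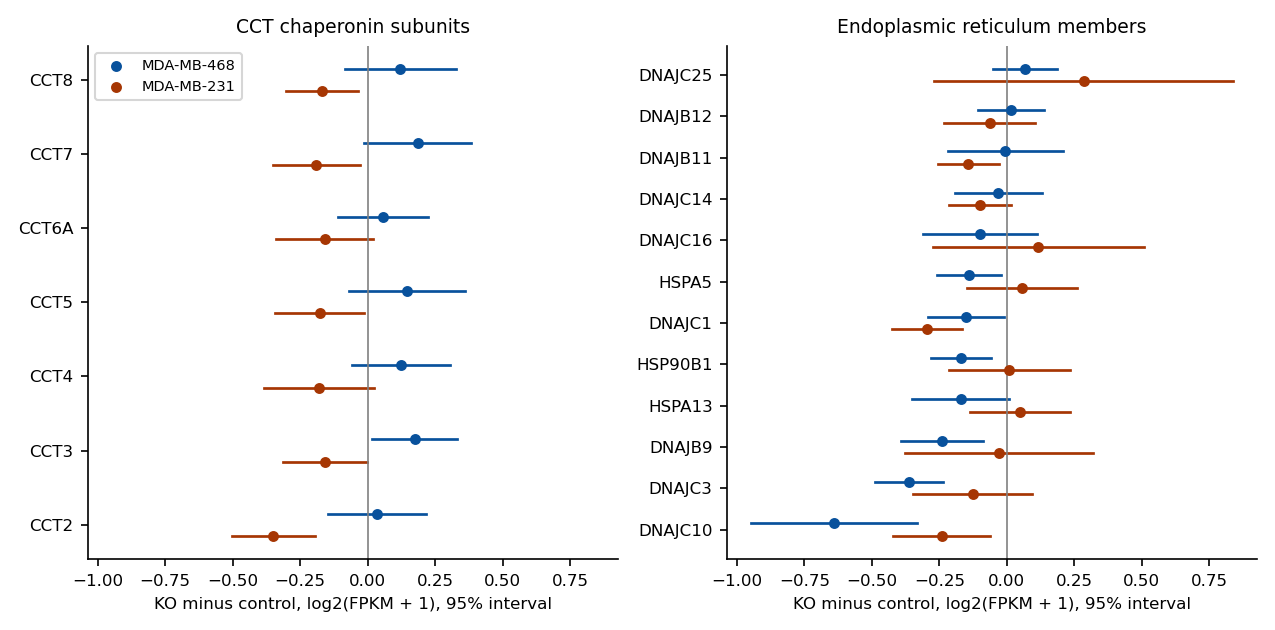
KO minus control on the log2(FPKM + 1) scale (horizontal axis) with 95% intervals for the 7 CCT subunits (left) and the 12 ER members (right) in MDA-MB-468 (blue) and MDA-MB-231 (brown). The CCT points lie right of zero in MDA-MB-468 and left of it in MDA-MB-231, while 6 of the 12 ER members have intervals wholly below zero in MDA-MB-468, with DNAJC10 and DNAJC3 the lowest.

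In MDA-MB-231 cells 0 of 66 members were called with limma as well, where 426 genes (3.7%) were, since no member with an adjusted p under 0.05 differed by more than 0.5. At an unadjusted p under 0.05 there were 26 members, 3 higher (4.55%, against 14.8% of all genes) and 23 lower (34.8%, against 16.4%). Without the limit on size, 6 members fell (9.09%, against 5.48% of all genes) and 0 rose. Of the 66 differences 47 were negative, with a median of -0.13 (-0.01 over all genes). The KO samples lay all below the controls for 24 members (36.4%, against 19.4% of all genes) and all above for 5 (7.58%, against 16.6%). Unlike in MDA-MB-468, the members outside the ER leaned lower, with 40 of the 54 negative (74.1%, against 51.5% of all genes) and a median of -0.16. With each sample left out in turn, 38 to 42 of the 54 were negative. Of the 66, 42 were negative after scaling to the 75th percentile and 48 after quantile normalization. Members with an unadjusted p under 0.05 by limma were then 17 and 18. Genes at high levels leaned lower in this line in general, as given with the CCT subunits below.

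Among the genes that fell in MDA-MB-231, HSPH1 (HSP110, chr13:31709110-31736525), an exchange factor and disaggregation partner of HSP70, was 70.0, 63.1 and 62.1 FPKM in the controls and 50.05, 45.8 and 52.9 FPKM in the KO samples. All KO samples lay below the controls, and the difference was -0.38 ± 0.08, adjusted p = 0.0365. In MDA-MB-468 it was 52.2, 66.0 and 64.5 FPKM in the controls and 61.4, 71.0 and 72.4 FPKM in the KO samples, where the groups overlapped (0.17 ± 0.11, adjusted p = 0.413). HSP90AB1 (HSP90-beta, chr6:44213903-44221625), the constitutive cytosolic HSP90, was 1208, 1158 and 1216 FPKM in the controls and 973, 995 and 1036 FPKM in the KO samples of MDA-MB-231. It fell without overlap (-0.25 ± 0.05, adjusted p = 0.0317). In MDA-MB-468 it was 743, 850.4 and 905 FPKM in the controls and 844, 1020.0 and 998 FPKM in the KO samples, and the samples overlapped (0.20 ± 0.11, adjusted p = 0.313).

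HSP90AA1 (HSP90-alpha), the stress-inducible partner, was 741, 625 and 666 FPKM in the controls and 535, 513 and 605 FPKM in the KO samples of MDA-MB-231. The groups did not overlap, and the difference of -0.30 ± 0.09, adjusted p = 0.0934 missed the limit. In MDA-MB-468 it was 443, 472 and 498 FPKM in the controls and 424, 483 and 451 FPKM in the KO samples (-0.06 ± 0.07, adjusted p = 0.656). HSPA14, a ribosome-associated HSP70, was 46.2, 44.4 and 45.3 FPKM in the controls and 37.5, 40.6 and 38.3 FPKM in the KO samples of MDA-MB-231 and fell by 0.22 on the log2 scale (SE 0.05, adjusted p = 0.0457). HSPA8 differed by 0.09 ± 0.16, adjusted p = 0.775 in MDA-MB-468 and by -0.21 ± 0.09, adjusted p = 0.176 in MDA-MB-231, with overlapping samples in both lines. Quantile normalization turned the sign of HSPA8 in MDA-MB-468.

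The last of the 6 were CCT2, DNAJC1 (above) and DNAJC9, a J-domain protein that also binds histones H3 and H4. DNAJC9 was 46.4, 47.8 and 47.9 FPKM in the controls and 37.6, 41.6 and 40.6 FPKM in the KO samples of MDA-MB-231 (-0.24 ± 0.05, adjusted p = 0.0441). The next members by p in this line were BAG4 (-0.22 ± 0.05, adjusted p = 0.0543), DNAJA2 (-0.22 ± 0.05, adjusted p = 0.0543), DNAJC8 (-0.18 ± 0.05, adjusted p = 0.0643) and the mitochondrial DNAJC4, which was higher and did not pass (0.47 ± 0.12, adjusted p = 0.0594). With single samples left out, 5 of the 6 genes missed the limit each time and CCT2 passed it once, without control replicate 2. All 6 kept negative differences, within -0.43 and -0.33 for HSPH1 and within -0.28 and -0.23 for HSP90AB1.

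The 7 subunits of the CCT chaperonin in the table (CCT2 to CCT5, CCT6A, CCT7 and CCT8) had differences on opposite sides of zero in the lines. In MDA-MB-231 all 7 were lower in the KO (51.5% of all genes were), with a median of -0.18. For 5 of them all KO samples lay below the controls, as for 19.4% of all genes. CCT2 (chr12:69979206-69995350) was 161, 142 and 159 FPKM in the controls and 119, 119 and 123 FPKM in the KO samples. It passed the test (-0.35 ± 0.06, adjusted p = 0.0296), and the other 6 did not, with CCT3 at -0.16 ± 0.06, adjusted p = 0.157 and CCT7 at -0.19 ± 0.07, adjusted p = 0.116. In MDA-MB-468 all 7 were higher (53.6% of all genes were), with a median of 0.12, and 0 passed the test. The subunits are abundant, 4 with a mean log2 value of 8 or more and 3 between 6 and 8, and genes at these levels leaned the same way. In MDA-MB-468 the median of all genes was 0.12 at 8 or more (22.4% negative) and 0.04 from 6 to 8 (37.4% negative). In MDA-MB-231 it was -0.09 (72% negative) and -0.06 (65.5% negative). The part of this lean in the values of the subunits was not tested. In MDA-MB-468, CCT3 was 293, 316 and 327 FPKM in the controls and 336, 370.2 and 349 FPKM in the KO samples, without overlap (0.17 ± 0.06, adjusted p = 0.17). CCT2 was 117, 126 and 133 FPKM in the controls and 121, 137 and 127 FPKM in the KO samples of MDA-MB-468 (0.04 ± 0.07, adjusted p = 0.805). The sign of CCT2 in MDA-MB-468 turned without control replicate 1 or KO replicate 2. The 7 were lower in MDA-MB-231 under each scaling, whereas quantile normalization turned the sign of CCT6A in MDA-MB-468.

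The subunits shared their deviations between samples. In MDA-MB-468 replicate 1 was the lowest for all 7 subunits among the controls and again among the KO samples, so that the 7 genes are not 7 separate observations. This was not particular to the subunits. Replicate 1 was the lowest for 42 of the 66 members among the controls and for 34 among the KO samples. The summed level of the 7 was 2488, 2766 and 2844 FPKM in MDA-MB-468 controls and 2750, 3050 and 2950 FPKM in the KO samples, which overlapped. In MDA-MB-231 it was 1800, 1671 and 1764 FPKM in the controls and 1449, 1515 and 1631 FPKM in the KO samples, which did not. TCP1, the subunit whose symbol the rule does not match, was 221, 247 and 259.7 FPKM in the controls and 214, 237 and 242 FPKM in the KO samples of MDA-MB-468 (-0.07 ± 0.08, adjusted p = 0.649) and 158, 138 and 143 FPKM in the controls and 122, 143 and 147 FPKM in the KO samples of MDA-MB-231 (-0.10 ± 0.09, adjusted p = 0.525). Its value in MDA-MB-468 was thus negative where those of the 7 were positive.

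The difference between the KO effects of the lines was tested directly as the interaction contrast of all 12 samples. It passed the adjusted limit for 11 of 66 members. The effect was more positive in MDA-MB-468 for 10 (15.2%, against 7.91% of all genes) and more negative for 1 (1.52%, against 6.83%). Of the 66 differences 49 were positive, with a median of 0.17 (0.02 over all genes). In the fit without the block all 11 lay outside the ER, where 45 of 54 were positive (83.3%, against 53.1% of all genes). Of the 12 ER members 8 were negative (66.7%, against 46.9% of all genes), with a median of -0.20. In direction, 33 of the 66 members were higher in the KO of MDA-MB-468 and lower in that of MDA-MB-231, as were 28% of all genes. For the ER members this was 1 of 12, and 6 of 12 were lower in both lines (22.9% of all genes).

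The largest positive difference among the 11 was that of HSPH1 (0.55 ± 0.14, adjusted p = 0.0274), whose levels are given above. BAG2 (chr6:57037124-57054631), an exchange factor that inhibits the ubiquitin ligase CHIP, was 11.01, 12.6 and 12.7 FPKM in the controls and 15.2, 14.9 and 13.3 FPKM in the KO samples of MDA-MB-468, all higher in the KO, and 57.1, 44.4 and 48.7 FPKM in the controls and 40.0, 38.9 and 42.5 FPKM in the KO samples of MDA-MB-231, all lower. Its effects differed by 0.54 ± 0.13, adjusted p = 0.0235. HSP90AB1 differed by 0.45 ± 0.13, adjusted p = 0.0344, CCT2 by 0.38 ± 0.11, adjusted p = 0.0334, CCT7 by 0.38 ± 0.11, adjusted p = 0.0451 and CCT3 by 0.33 ± 0.10, adjusted p = 0.0464. HSPA4L, an HSP110 relative and HSF1 target, was 1.25, 1.09 and 1.25 FPKM in the controls and 1.29, 1.63 and 1.82 FPKM in the KO samples of MDA-MB-468, and 16.0, 15.7 and 14.6 FPKM in the controls and 13.7, 12.3 and 14.3 FPKM in the KO samples of MDA-MB-231. It was higher in every KO sample of the first line and lower in every KO sample of the second, with a difference of 0.42 ± 0.12, adjusted p = 0.04.

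DNAJC6 (auxilin), which uncoats clathrin vesicles with HSPA8, was 8.46, 9.53 and 10.1 FPKM in the controls and 10.2, 9.94 and 11.6 FPKM in the KO samples of MDA-MB-468, and 4.44, 4.53 and 3.85 FPKM in the controls and 3.77, 3.30 and 2.96 FPKM in the KO samples of MDA-MB-231 (0.44 ± 0.13, adjusted p = 0.0451). BAG4, an exchange factor that also binds the TNF receptor, was 7.97, 8.0 and 7.86 FPKM in the controls and 8.60, 7.95 and 9.49 FPKM in the KO samples of MDA-MB-468, and 7.45, 7.38 and 6.93 FPKM in the controls and 5.77, 6.15 and 6.35 FPKM in the KO samples of MDA-MB-231 (0.33 ± 0.10, adjusted p = 0.0416). DNAJC30, a mitochondrial protein encoded by a single exon, was 3.38, 2.99 and 3.41 FPKM in the controls and 4.29, 4.13 and 4.05 FPKM in the KO samples of MDA-MB-468, without overlap, and 7.52, 7.34 and 7.46 FPKM in the controls and 6.99, 7.77 and 7.16 FPKM in the KO samples of MDA-MB-231, with overlap (0.30 ± 0.09, adjusted p = 0.0423). DNAJC4 was the exception in sign. It was 32.6, 26.7 and 29.6 FPKM in the controls and 31.3, 26.5 and 25.5 FPKM in the KO samples of MDA-MB-468, where the groups overlapped, and 12.1, 13.9 and 17.1 FPKM in the controls and 20.0, 19.8 and 20.7 FPKM in the KO samples of MDA-MB-231, where every KO sample was higher (-0.56 ± 0.17, adjusted p = 0.0422).

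The number of members past this limit rested on single samples. It was 0 without MDA-MB-468 control replicate 1 and 14 without KO replicate 1 of that line, which were the lowest samples for the CCT subunits. It was 1 without MDA-MB-468 KO replicate 3 or MDA-MB-231 KO replicate 1 or 2, 2 without MDA-MB-231 control replicate 1 or MDA-MB-468 KO replicate 2, 3 without MDA-MB-468 control replicate 2, and 5 and 7 without MDA-MB-231 control replicates 2 and 3. It was 8 without MDA-MB-468 control replicate 3 and 9 without MDA-MB-231 KO replicate 3. The median over the 66 stayed between 0.14 and 0.19. With the replicate block 8 members passed, 6 more positive and 2 more negative. BAG4 (adjusted p = 0.0817), CCT3 (0.0643), DNAJC30 (0.0792) and HSPA4L (0.0693) missed the limit then, and the ER member DNAJC10 passed it with a negative difference (-0.40, adjusted p = 0.0414). Scaling to the same 75th percentile left 3 members, of which 66.7% were more positive in MDA-MB-468, against 90.9% before (41.6% against 53.7% over all genes called).

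The lean of the difference grew with the level of a gene also outside the chaperones, and this stands beside the result because the members are abundant. Over all genes its median was -0.04 at a mean log2 value under 4, 0.04 from 4 to 6, 0.10 from 6 to 8, and 0.21 at 8 or more. The medians of the members in these ranges were 0.15, 0.15, 0.14 and 0.31, over 21, 22, 13 and 10 genes. In the highest range 19.6% of all 286 genes were negative. The part of the general lean in the values of the members was not tested.

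**Figure D3:**
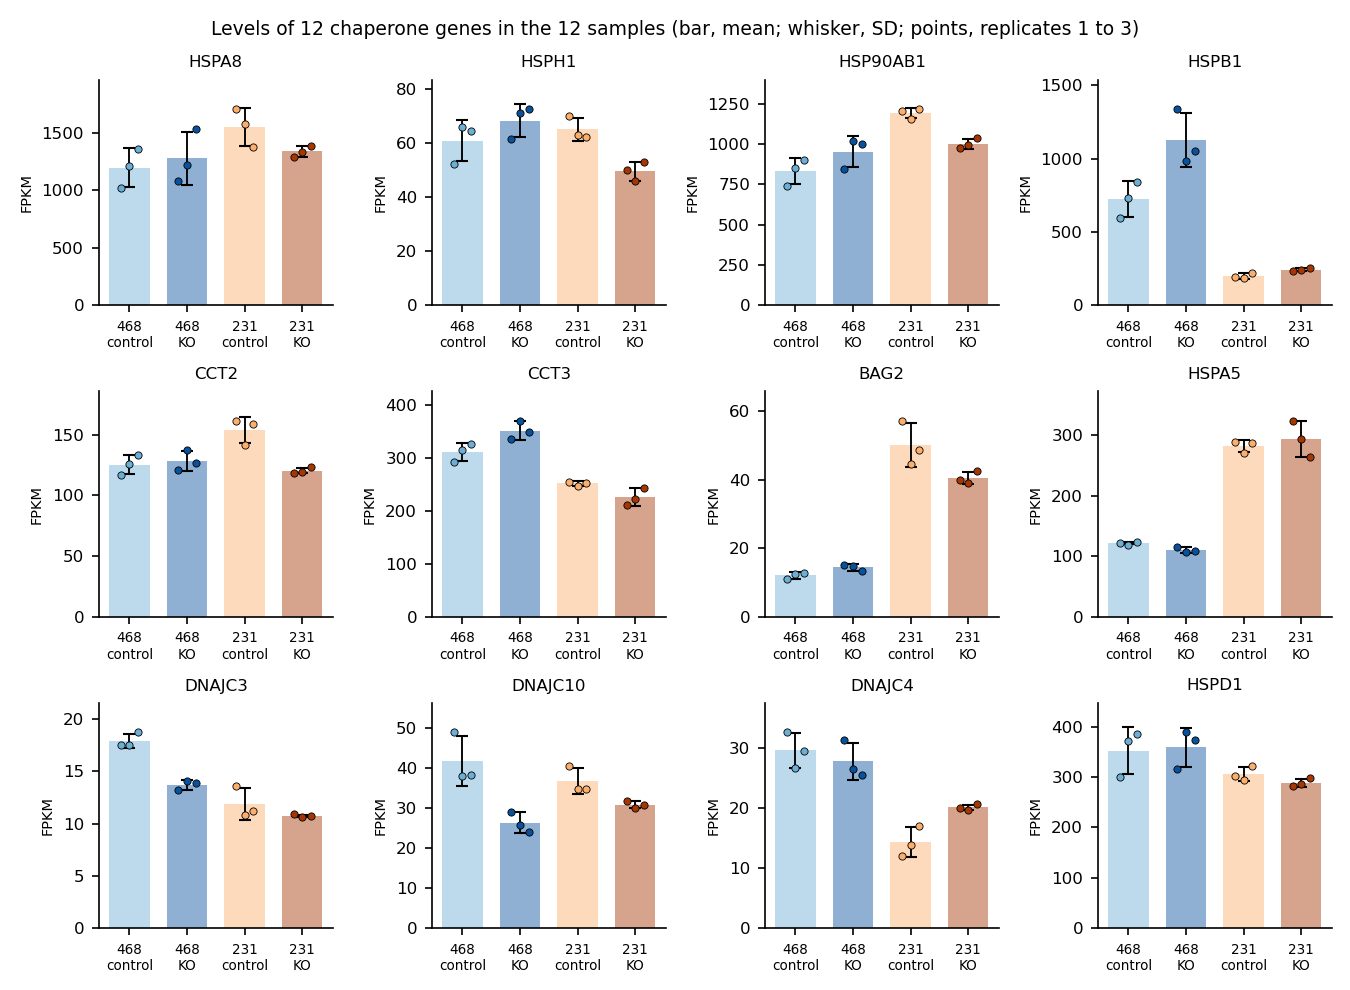
FPKM (vertical axes, from 0) of 12 members in the 4 groups, with bars for the mean of 3 samples, whiskers for the SD and points for replicates 1 to 3. HSPH1 and HSP90AB1 have all MDA-MB-231 KO points below the controls, HSPB1 has all KO points above the controls in both lines, and DNAJC3 and DNAJC10 have all MDA-MB-468 KO points below the controls.

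HSF1 was 31.3, 35.4 and 34.4 FPKM in the controls and 38.1, 37.1 and 37.6 FPKM in the KO samples of MDA-MB-468, and 66.9, 57.0 and 61.6 FPKM in the controls and 61.7, 65.5 and 70.3 FPKM in the KO samples of MDA-MB-231, and its differences of 0.16 ± 0.06, adjusted p = 0.173 and 0.09 ± 0.08, adjusted p = 0.495 did not pass the test. Of 18 textbook HSF1 target genes, 13 of them members, 15 differences were positive in MDA-MB-468 (83.3%, against 53.6% of all genes, median 0.10). In MDA-MB-231, 14 were negative (77.8%, against 51.5% of all genes, median -0.14). Of the 18 effects, 17 were more positive in MDA-MB-468 (94.4%, against 53.1% of all genes), and 14 after quantile normalization. Abundant genes leaned this way in general, as given above, and the part of that lean here was not tested. In MDA-MB-468, replicate 1 was the lowest for 15 of the 18 in each group, so that these are not 18 separate observations. The members of the list overlap with the classes above. Among them DNAJB1, the main J-domain partner of HSPA8, was 152, 138 and 152 FPKM in the controls and 157, 152 and 156 FPKM in the KO samples of MDA-MB-468, and 96.0, 101 and 98.7 FPKM in the controls and 99.6, 99.99 and 95.7 FPKM in the KO samples of MDA-MB-231. The groups overlapped in both lines (0.07 ± 0.06, adjusted p = 0.459 and -0.0012 ± 0.04, adjusted p = 0.998), and both scalings turned the sign of DNAJB1 in MDA-MB-231. BAG3, the stress-induced exchange factor of selective autophagy, was 23.3, 25.7 and 27.3 FPKM in the controls and 26.1, 31.3 and 34.9 FPKM in the KO samples of MDA-MB-468 (0.26 ± 0.12, adjusted p = 0.243), and 48.4, 53.4 and 49.6 FPKM in the controls and 48.7, 50.6 and 48.8 FPKM in the KO samples of MDA-MB-231 (-0.03 ± 0.05, adjusted p = 0.743).

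The 6 members with a run of 3 heat shock units had differences from -0.06 to 0.20 in MDA-MB-468 (5 positive, median 0.10) and from -0.30 to 0.09 in MDA-MB-231 (5 negative, median -0.17). The effects were more positive in MDA-MB-468 for all 6, with a median of 0.27, although either scaling turned the sign of DNAJB6 and quantile normalization also that of HSPD1. The 53 members with a promoter in the table and no such run had a median of 0.17, with 37 positive. The one of the 6 that was higher in MDA-MB-231 was DNAJB6 (0.09 ± 0.06, adjusted p = 0.352).

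Partners of the cytosolic chaperones were also mostly lower in the KO of MDA-MB-231. Of 31 measured, 26 had a negative difference there (83.9%, against 51.5% of all genes) and 5 passed the test, all lower (5.48% of all genes). TOMM34, which links HSP70 and HSP90 to mitochondrial import, was the only partner called (75.02, 72.1 and 73.2 FPKM in the controls and 50.6, 51.4 and 52.1 FPKM in the KO samples, -0.51 ± 0.04, adjusted p = 0.00721). The others were the HSP90 immunophilins FKBP4 (-0.27 ± 0.06, adjusted p = 0.048) and PPID (-0.35 ± 0.06, adjusted p = 0.0294), the prefoldin subunit PFDN4 (-0.33 ± 0.06, adjusted p = 0.0265) and CDC37L1 (-0.30 ± 0.07, adjusted p = 0.0484). In MDA-MB-468, 20 of the 31 were positive (64.5%, against 53.6% of all genes) and 0 passed the test. There CRYAB, a small heat shock protein outside the naming rule, was 63.8, 45.2 and 42.5 FPKM in the controls and 25.8, 14.0 and 13.4 FPKM in the KO samples (-1.50 ± 0.29, adjusted p = 0.0545). CRYAB was listed at 0 in all MDA-MB-231 samples.

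HSPB1 (HSP27, chr7:75931990-75933612), the abundant small heat shock protein, was the member with the largest positive difference in MDA-MB-468. It was 595, 733 and 843 FPKM in the controls and 1336, 987 and 1056 FPKM in the KO samples, so that the lowest KO sample exceeded the highest control. The difference of 0.64 ± 0.17, adjusted p = 0.0916 missed the limit, and it passed when all 12 samples shared 1 fit. In MDA-MB-231 it was 189.9, 189 and 223 FPKM in the controls and 232, 244 and 256 FPKM in the KO samples, again without overlap (0.28 ± 0.08, adjusted p = 0.081), and the difference between its effects in the lines missed the limit (0.36 ± 0.19, adjusted p = 0.224, 95% interval -0.06 to 0.78). HSPB8 was listed at 0 in 4 of the 6 MDA-MB-468 samples and at 0.02 FPKM in the other two, and it was 5.69, 6.38 and 5.54 FPKM in the controls and 5.67, 4.78 and 4.55 FPKM in the KO samples of MDA-MB-231.

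Among the other J-domain proteins and exchange factors of MDA-MB-468, BAG1, an exchange factor that links HSP70 to the proteasome, was 113, 115 and 115 FPKM in the controls and 104, 87.3 and 73.8 FPKM in the KO samples. All KO samples were lower, and the difference was -0.38 ± 0.12, adjusted p = 0.136. With single samples left out it was called only without KO replicate 1, the KO sample nearest the controls. HSPBP1, an exchange factor, was 40.0, 50.3 and 51.0 FPKM in the controls and 57.2, 58.2 and 61.1 FPKM in the KO samples, all higher in the KO (0.32 ± 0.10, adjusted p = 0.132), and DNAJB2, a J-domain protein that delivers clients to the proteasome, was 44.1, 37.2 and 38.1 FPKM in the controls and 52.4, 46.8 and 51.2 FPKM in the KO samples, likewise all higher (0.33 ± 0.08, adjusted p = 0.0864). DNAJC30 (0.28 ± 0.06, adjusted p = 0.0598) and the pseudogene CCT6P3 (0.21 ± 0.07, adjusted p = 0.131) were also among the 10 members with the smallest p. CCT6P3 resembles CCT6A, and fragments may have been split between them.

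The mitochondrial chaperones showed no difference past the test in either line. HSPD1 (HSP60), the mitochondrial chaperonin, was 299.6, 371 and 386 FPKM in the controls and 316, 389 and 373 FPKM in the KO samples of MDA-MB-468 (0.03 ± 0.13, adjusted p = 0.912), and 302, 294 and 322 FPKM in the controls and 281, 286 and 297 FPKM in the KO samples of MDA-MB-231 (-0.08 ± 0.05, adjusted p = 0.333). The samples of HSPD1 overlapped in both lines. HSPE1 (HSP10), its lid, shares a bidirectional promoter with HSPD1 on chromosome 2 and differed by 0.17 ± 0.13, adjusted p = 0.48 and 0.03 ± 0.11, adjusted p = 0.902. HSPE1 overlaps the readthrough gene HSPE1-MOB4, whose fragments cannot all be told apart from its own. HSPA9 (mortalin), the HSP70 of the matrix, was 165, 178 and 178 FPKM in MDA-MB-468 controls and differed by 0.02 ± 0.05, adjusted p = 0.827 and -0.11 ± 0.07, adjusted p = 0.336. The 95% intervals of HSPA9 ran from -0.11 to 0.16 in MDA-MB-468 and from -0.27 to 0.06 in MDA-MB-231. Quantile normalization turned the signs of HSPA9 and HSPD1 in MDA-MB-468.

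Between the control cells of the lines, unlike between KO and control cells, many members were called. Of the 66 members 33 were called, 16 higher in MDA-MB-468 (24.2%, against 32.7% of all genes) and 17 lower (25.8%, against 31.4%). HSPA2, an HSP70 best known from the testis, was 13.3, 11.9 and 12.7 FPKM in MDA-MB-468 controls and 0.67, 0.71 and 0.68 FPKM in MDA-MB-231 controls (3.01 ± 0.07, adjusted p = 7.92e-09). HSPA4L was the reverse, with 1.25, 1.09 and 1.25 FPKM and 16.0, 15.7 and 14.6 FPKM (-2.90 ± 0.07, adjusted p = 1.11e-08). HSPB8, a small heat shock protein that works with BAG3, was listed at 0.02, 0 and 0 FPKM in the first line and at 5.69, 6.38 and 5.54 FPKM in the second, for which no fold change is given.

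**Figure D4:**
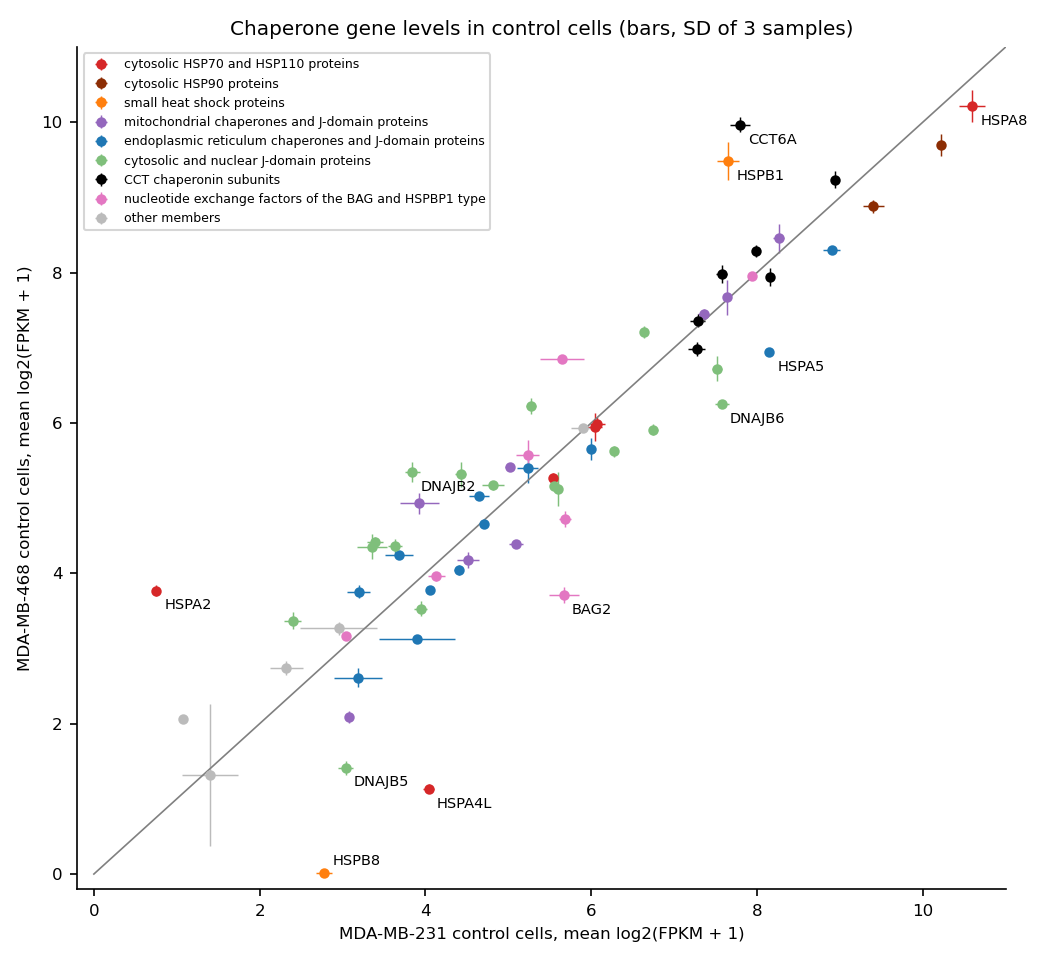
Mean log2(FPKM + 1) of the 66 members in control cells of MDA-MB-231 (horizontal axis) and MDA-MB-468 (vertical axis), with bars for the SD of 3 samples, colours for role and the line of equal levels. HSPA2, CCT6A, HSPB1 and DNAJB2 lie above the line, and HSPA4L, HSPB8, BAG2, DNAJB5, DNAJB6 and HSPA5 below it.

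HSPB1 was higher in MDA-MB-468 controls (1.84 ± 0.13, adjusted p = 5.31e-06), as was DNAJB2 (1.51 ± 0.09, adjusted p = 1.60e-06). Lower there were BAG2 (-1.96 ± 0.11, adjusted p = 9.26e-07), DNAJB5 (-1.62 ± 0.08, adjusted p = 5.54e-07), DNAJB6, a suppressor of protein aggregation (-1.33 ± 0.07, adjusted p = 7.83e-07), and HSPA5 (-1.21 ± 0.07, adjusted p = 9.19e-07). HSPA5 was 122, 119 and 124 FPKM in MDA-MB-468 controls and 289, 270.3 and 288 FPKM in MDA-MB-231 controls, so that its line difference was several times the spread within either. Of the 12 ER members 6 were called, 4 lower in MDA-MB-468 (33.3%, against 31.4% of all genes) and 2 higher (16.7%, against 32.7%). By contrast HSPA9, HSPD1, HSPE1, HSPA4, HSPH1 and BAG6 did not pass the test between the lines.

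CCT6A (chr7:56119378-56131682) was the one CCT subunit called between the lines, at 924, 1029 and 1047 FPKM in MDA-MB-468 controls and 241, 203 and 221 FPKM in MDA-MB-231 controls (2.17 ± 0.09, adjusted p = 1.86e-07). The other 6 subunits differed by between -0.29 and 0.40. Its neighbours on chromosome 7 were higher in the same line. All 9 measured genes within 1 Mb were called higher in MDA-MB-468, with a median of 2.79. They were EGFR (3.67), LANCL2 (4.84), VOPP1 (4.12), ZNF713 (3.71), MRPS17 (2.05), PSPH (2.79), SUMF2 (1.07), PHKG1 (1.12) and CHCHD2 (2.44). MDA-MB-468 is known for extra copies of EGFR. DNA copies were not measured in these samples, and their part in the level of CCT6A was not tested.

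**Figure D5:**
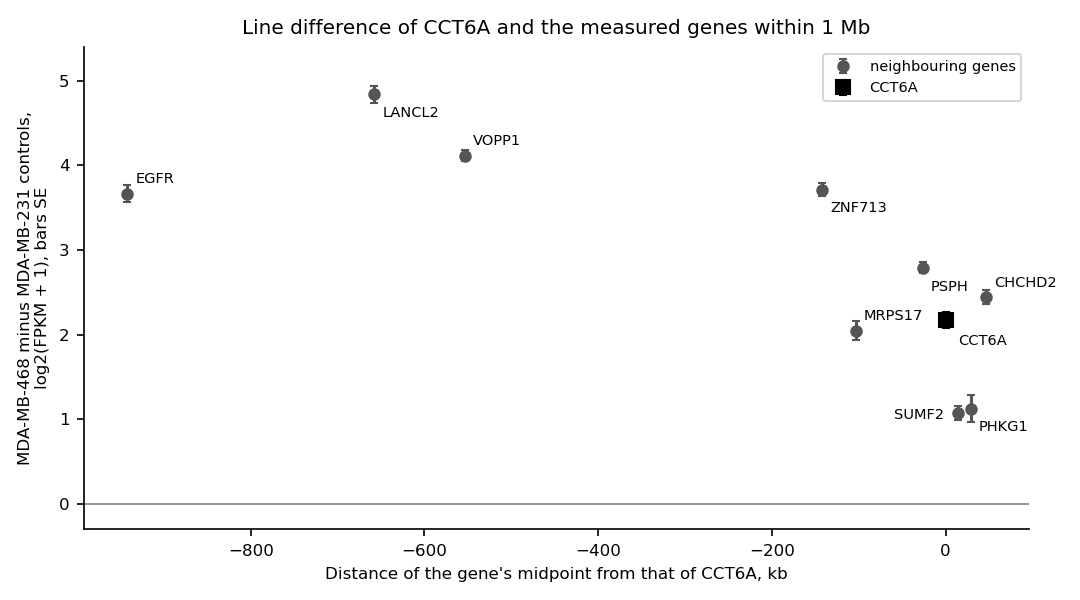
Difference between MDA-MB-468 and MDA-MB-231 control cells on the log2(FPKM + 1) scale (vertical axis, bars SE) for CCT6A (square) and the 9 measured genes within 1 Mb (circles), by distance in kb between gene midpoints. All 10 genes lie above zero, from SUMF2 at 1.07 to LANCL2 at 4.84.

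Such a shared direction was seen at some of the other members with a large line difference and not at others. HSPA5 had 11 measured neighbours within 1 Mb, all lower in MDA-MB-468, 9 of them called, with a median of -0.83. BAG2 had 5, all lower, with a median of -0.49, but only 2 of these were called. Of all genes 49.7% were lower in MDA-MB-468. The neighbours shared the direction of the member in 4 of 4 for HSPA4L, 7 of 9 for HSPB8, 4 of 5 for DNAJB6 and 18 of 27 for DNAJB2. HSPA2 lay among 13 genes of which 2 were higher, with a median of -0.49 against its own 3.01, HSPB1 among 15 of which 7 were higher, and DNAJB5 among 30 of which 6 were lower.

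The 5 members matched by name only had no difference past the test between KO and control. DNAJC27-AS1 ranged from 0.15 to 3.69 FPKM over the 12 samples, with overlap in both lines, and its interval in MDA-MB-468 ran from -0.82 to 1.51. HSPE1-MOB4, HSPB11 and HSPBAP1 differed by -0.08, -0.04 and 0.06 in MDA-MB-468 and by -0.25, 0.06 and -0.22 in MDA-MB-231.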

How the data were processed

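RNA of 12 samples (MDA-MB-468 and MDA-MB-231, control and SMARCA4 KO, 3 each) was sequenced from a stranded mRNA kit. After trimming (Trimmomatic), the authors mapped the reads to hg19 using STAR and obtained gene values from RSEM. The deposited values are log2(FPKM + 1) for 11529 genes, from which the authors had removed genes with a mean or SD of FPKM under 1 (smallest 1.07 and 1.00 here). Whether counting used strand is not given in the sources used here. Symbols turned into dates in 18 rows were not used as members. Summed FPKM was 673808 to 715537 per sample, 11293 to 11362 genes were above 0, and depth is unknown.

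Groups were compared with limma 3.58.1 (R 4.3.3, lmFit and eBayes) on the log2 values, over all genes, with Benjamini-Hochberg adjustment. Values after ± are SE of a difference, or SD where so named. A KO or line difference was called at an adjusted p under 0.05 and an absolute difference over 0.5, and the difference of KO effects at an adjusted p under 0.05. Tables and figures were made with Python 3.11.15, numpy 2.4.6, pandas 2.3.3 and matplotlib 3.10.9. The fits were tested on simulated data. Gene positions came from GENCODE 44 on GRCh37, in which 65 of 66 members were found, and promoters from RefSeq. Alternatives were another pseudocount, a filter on low values, an intensity trend, other scalings, other limits, 1 fit of all samples, blocks, and each sample left out.

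The members and lists were chosen with earlier results of these data known. Named were a set of main chaperones whatever their values, the 10 members with the smallest p in each KO comparison, the 10 called members with the largest difference between the lines whose samples did not overlap, every member whose KO effects differed, and, of the partners, HSF1, TCP1, HYOU1 and those called. Other partners that passed the test, DNAJB6, HSPA14 and the neighbours of CCT6A were named after their values were seen. Same-numbered MDA-MB-468 samples deviated together from their group means (correlations 0.254, 0.161 and 0.119). Control replicate 3 also did so with KO replicate 2 (0.131), so whether the numbers pair the samples is not settled. The main fits therefore had no block, and the replicate number, which comes from the titles, was a block in an alternative fit. The p numbers of the labels would pair the MDA-MB-468 samples otherwise. Over all genes, same-numbered samples of MDA-MB-231 did not deviate together (correlations -0.05, 0.07 and -0.11). The immediate early genes of that line did, with replicate 1 the highest for 11 of the 11 among the controls and for 10 among the KO samples.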

Additional observations from a re-analysis of the deposited data

Results flagged for a closer look

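For 11 members the KO effect differed between the lines by the interaction test of limma (adjusted p over all genes). The effect was more positive in MDA-MB-468 by 0.54 for BAG2 (adjusted p = 0.0235), 0.33 for BAG4 (0.0416), 0.38 for CCT2 (0.0334), 0.33 for CCT3 (0.0464), 0.38 for CCT7 (0.0451), 0.30 for DNAJC30 (0.0423), 0.44 for DNAJC6 (0.0451), 0.45 for HSP90AB1 (0.0344), 0.42 for HSPA4L (0.0400) and 0.55 for HSPH1 (0.0274). For DNAJC4 the value was -0.56 (adjusted p = 0.0422). These are differences on the log2(FPKM + 1) scale. With the replicate number as a block, BAG4, CCT3, DNAJC30 and HSPA4L missed the limit.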

How the results depend on the processing

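No result changed its direction together with a call under the alternatives. Of the members, 0 called in MDA-MB-468 became 2 with 1 fit of all 12 samples, with a filter at a mean log2 value of 2 or with unadjusted p, and 1 with an intensity trend, with no fold limit or with the replicate block. With single samples left out it was 0 to 1. In MDA-MB-231, 0 became 6 with no fold limit and 1 after scaling to the 75th percentile (DNAJC4), and was 0 to 1 with single samples left out and 0 with the replicate block. The 11 members whose effects differed became 3 with a limit of 0.5 or after scaling to the 75th percentile, 6 after quantile normalization, 21 with unadjusted p and 8 with the replicate block, and 0 to 14 with single samples left out. The 33 members called between the lines became 14 at a limit of 1 and 52 with no fold limit, and were 31 to 34 with single samples left out.

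Over all genes, 247 called in MDA-MB-468 became 241 with the replicate block, 0 with the p number of the labels as a block, 537 with 1 fit, 400 with the filter, 53 at a limit of 1, 432 with no fold limit, 614 with unadjusted p and 0 to 474 with single samples left out. The 426 of MDA-MB-231 became 0 with the replicate block (same-number correlations -0.05, 0.07 and -0.11), 1248 with no fold limit, 85 at a limit of 1, 567 with 1 fit, 613 with unadjusted p and 99 to 311. The 1699 genes whose effects differed became 1004 at a limit of 0.5, 3632 with unadjusted p, 1463 with the replicate block and 924 to 1897. The 7395 genes between the lines became 4150 at a limit of 1. Beside the members named in the report, the replicate block ended the 6 calls without a fold limit in MDA-MB-231. The cause of these shifts was not tested. Depth is unknown, and 3 samples a group limit the precision.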
